A study of Mus musculus with 4 samples.

Results

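The iron and heme genes described here are Fth1, Slc25a37 and Alas2, which are 3 of the 397 genes of a targeted immune panel. They were chosen by what their products do with iron, with earlier results of these data known, and not by a threshold on their own reads. The values that enter the choice of cells are the number of genes and reads per cell and the reads of Trem2, Apoe, Cst7 and lineage marker genes. Brain cells of 4 male mice aged 9 months were profiled with the BD Rhapsody Mouse Immune Response Panel, with 1 library per mouse. The study asked how loss of Abi3, an Alzheimer's disease risk gene of microglia, changes the cells of the 5XFAD brain. All mice, controls included, carried 5XFAD, a transgene that is driven in neurons and leads to amyloid plaques. There were 2 mice of genotype 5XFAD;Abi3-/-, a germline null allele, and 2 of genotype 5XFAD with intact Abi3, called Abi3+/+ here. The methods state that the study's mice were also heterozygous for a natural Trem2 coding variant of the SJL background. Mice were perfused, and the right hemisphere without cerebellum or olfactory bulb was dissociated in the cold with Accutase and depleted of myelin. Abi3 is not in the panel, so its loss was not measured and the genotypes rest on the labels.

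Iron inside a cell is either used or stored. Fth1 encodes the ferritin heavy chain, which oxidizes iron and stores it in the ferritin shell. Slc25a37 encodes mitoferrin-1, which carries iron into mitochondria for heme and iron-sulfur cluster synthesis. Alas2 encodes the erythroid form of 5-aminolevulinate synthase, the first enzyme of heme synthesis, and is known as a gene of red cell precursors. When iron is scarce, iron regulatory proteins bind a hairpin in the 5′ UTR of the Fth1 and Alas2 mRNAs, the iron-responsive element (IRE), and hold back their translation. Reads measure mRNA, so that level of control is not seen in these data. Microglia, the resident macrophages of the brain, are known to load ferritin near amyloid plaques.

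The hairpin is printed for the members that hold it, because it is the sequence that joins iron storage and erythroid heme synthesis. The search used a bulged C, a stem of 5 paired bases and a loop of CAGTGN, with G-T pairs allowed in the stem, on the sense strand of GENCODE vM39 transcripts. In the lines printed here 5′ to 3′, capitals mark the loop.
Fth1: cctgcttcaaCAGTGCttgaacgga
Alas2: ggttcgtcctCAGTGCagggcaaca
The Fth1 stretch covers positions 89 to 113 of transcript Fth1-201, whose 5′ UTR is 224 bases long. The Alas2 stretch covers positions 86 to 110 of Alas2-201, whose 5′ UTR is 126 bases long. Over the whole transcript a match was found in 17 of 18 coding transcripts of Fth1, in 19 of 20 of Alas2 and in 0 of 2 of Slc25a37. Within the first 150 bases it occurred in 16 of 18 for Fth1, 19 of 20 for Alas2 and 0 of 2 for Slc25a37, against 85 of 180305 coding transcripts of all genes, which is 0.0471%, from 21 genes. A match is a description of letters and not of binding.

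In the RefSeq annotation of GRCm38.p6, Fth1 lies at chr19:9980600-9985111, Slc25a37 at chr14:69241848-69285544 and Alas2 at chrX:150547417-150570622, and all 3 are protein-coding. Promoter windows of 300 bases, 250 before and 50 after the start of a gene, were in the RefSeq table for Fth1 and Alas2. AGATAA, the core that erythroid GATA factors bind, was searched on both strands. It is printed for Alas2 because the reads of that gene mark a set of cells described further on, and capitals mark the motif, which lies on the minus strand and so reads TTATCT here.
Alas2 promoter, plus strand, chrX:150547304-150547363: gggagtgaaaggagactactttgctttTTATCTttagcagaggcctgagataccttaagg
The motif lies 86 bases before the start of the gene, neither Fth1 window held it, and 3672 of 32851 promoter windows (11.2%) did.

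The 4 tables held 21172 cells and 511212143 reads, of which 87117727 to 150756771 came from a mouse. Left out were 5674 cells in which fewer than 40 genes were read and 1678 cells above the study's upper limit on reads per cell. The other 13820 were kept, and the deepest of them had 59271 reads. Values are reads and not molecules, so intervals on counts cover counting error only, and a read sum cannot tell fewer cells from less RNA per cell. Of 20991 different barcodes, 180 (0.858%) occurred in more than 1 library. With 1 library per mouse, p-values measure the spread between these libraries, and the mouse and its library cannot be told apart.

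Kept cells were placed in classes by marker reads. Microglia had a Trem2 read and no lineage gate (13065 cells), and they were split by Apoe and Cst7, genes that rise in plaque-associated microglia, into 4 states. There were 5790 Apoe-Cst7- cells, 2781 Apoe+Cst7-, 1130 Apoe-Cst7+ and 3364 Apoe+Cst7+. Macrophages made up 56 cells, neutrophils 101, T cells 281 and B cells 49, while 95 cells were mixed and 173 met no gate. The macrophage gate drew on a list for macrophages and monocytes (F13a1, Clec10a, Ccr2, Kcne3 and Flt3), so monocytes were not told apart in this class. Markers that did not enter the gates are given here for microglia, T cells, neutrophils and macrophages, and none is given for B cells. C1qa was read in 99.7% to 99.9% of microglia per mouse, and Itgax in 44.3% to 66.4% of Apoe+Cst7+ cells against 7.18% to 18.6% of Apoe-Cst7- cells. Lat was read in 93.7% to 100% of T cells, Trem1 in 62.5% to 84.2% of neutrophils and Itga4 in 68.8% to 94.7% of macrophages. Fn1, of the same list as Itga4, was read in 12.5% to 45.5% of macrophages. Of the microglial list, Adgre1 was read in 30% to 42.1% of macrophages, against 81.1% to 87.3% of microglia, and C1qa in 0% to 12.5% of macrophages. Cd163, a macrophage receptor for haemoglobin, was read in 0% to 37.5% of macrophages and was at 0 in those of Abi3-/- mouse 1. Of the 48 kept cells with a Cd163 read, 12 were in the macrophage class, 18 were mixed and 18 were placed with the microglia, 16 of these in the Apoe+Cst7- state, so the gate did not gather the Cd163-positive cells. Of the neutrophils, 72 came from Abi3-/- mouse 2, and Abi3+/+ mouse 1 and Abi3-/- mouse 1 gave 5 each.

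Fth1 rose from the Apoe-Cst7- to the Apoe+Cst7+ state in every mouse, and Slc25a37 fell in every mouse. In Apoe-Cst7- microglia Fth1 had 245 and 345 reads per 10000 reads of the class in Abi3+/+ mice 1 and 2 and 388 and 403 in Abi3-/- mice 1 and 2, with a mean of 345 ± 71.4 (SD, n = 4). In Apoe+Cst7+ microglia it had 638, 628, 478 and 580 in the same order, a mean of 581 ± 73.3 (SD, n = 4). The lowest Apoe+Cst7+ value lay above the highest Apoe-Cst7- value, so the states did not overlap. The ratio within a mouse was 2.61 and 1.82 in Abi3+/+ mice 1 and 2 and 1.23 and 1.44 in Abi3-/- mice 1 and 2. In the fit across genes the difference of Fth1 was 1.33 on the log2 scale (SE 0.17, 2.52-fold, adjusted p = 3.43e-05, quasi-likelihood test of edgeR on sums per mouse, with the mouse as a block and Benjamini-Hochberg adjustment over 304 genes).

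Slc25a37 ran the other way. Its level in Apoe-Cst7- microglia was 28.98 and 30.3 reads per 10000 in Abi3+/+ mice 1 and 2 and 19.7 and 21.7 in Abi3-/- mice 1 and 2 (25.2 ± 5.25, SD, n = 4). In Apoe+Cst7+ microglia it was 7.10, 6.58, 9.52 and 7.35 in the same order (7.64 ± 1.30, SD, n = 4). The states did not overlap, as for 138 of 304 genes (45.4%), of which 36 (11.8%) were higher like Fth1 and 102 (33.6%) lower like Slc25a37. Within a mouse the level was 4.08-fold and 4.60-fold lower in Abi3+/+ mice 1 and 2 and 2.06-fold and 2.96-fold lower in Abi3-/- mice 1 and 2. Its log2 difference was -1.15 (SE 0.14, 2.22-fold lower, adjusted p = 3.42e-05, the same edgeR fit). Of the genes tested, 151 of 304 (49.7%) passed in this contrast, 76 higher and 75 lower, so a call alone does not set a member apart from the panel.

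Library scaling moved this contrast. The median log2 difference over all genes was -0.06 with TMM scaling and -0.60 with library size alone. Under library size alone Fth1 still rose by 0.78 and Slc25a37 still fell by 1.68 on the log2 scale. Over all alternatives that kept the 4 mice, Fth1 ranged from 0.78 to 1.44 and Slc25a37 from -1.68 to -1.05, each past the threshold. Depth differed between the states, with median reads per cell of 16978 to 20989 per mouse in Apoe-Cst7- cells and 27647.5 to 31908 in Apoe+Cst7+ cells. With every cell thinned to 10000 reads, mean levels of Fth1 were 344 and 619 and those of Slc25a37 were 26.5 and 8.46 reads per 10000 in the Apoe-Cst7- and Apoe+Cst7+ states. Unthinned means over cells were 345 and 635 for Fth1 and 26.6 and 8.39 for Slc25a37. Thinning keeps a cell's expected share of each gene, so these means cannot show what part depth had in the contrast.

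**Figure D1:**
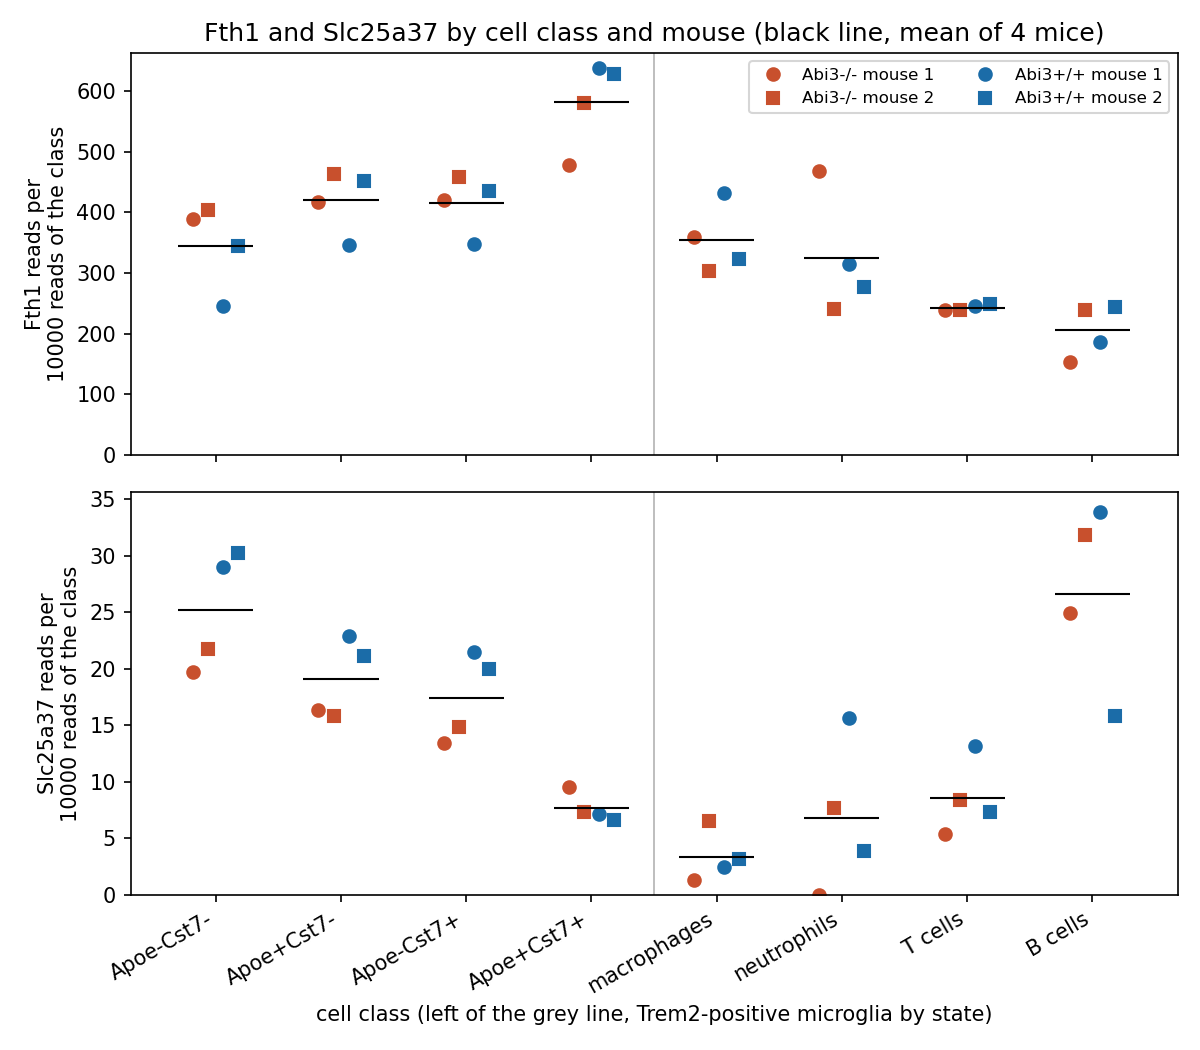
Reads per 10000 reads of the class (linear axes from 0) of Fth1, upper panel, and Slc25a37, lower panel, for each mouse in the 4 microglial states and in macrophages, neutrophils, T cells and B cells. Colours mark genotype, symbols mark the mouse and lines mark the mean of 4 mice. Fth1 is highest in Apoe+Cst7+ microglia, at 478 to 638, and Slc25a37 is at 6.58 to 9.52 there against 19.7 to 30.3 in the Apoe-Cst7- state.

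The states with a read of only Apoe or only Cst7 lay between. Fth1 in Apoe+Cst7- microglia was 347 and 452 reads per 10000 in Abi3+/+ mice 1 and 2 and 417 and 463 in Abi3-/- mice 1 and 2 (420 ± 52.4, SD, n = 4), and in Apoe-Cst7+ microglia 348, 435, 420 and 459 (416 ± 47.6, SD, n = 4). Slc25a37 was 22.9, 21.2, 16.3 and 15.8 reads per 10000 in Apoe+Cst7- and 21.5, 19.9, 13.4 and 14.8 in Apoe-Cst7+ microglia. Between mice these values overlapped those of the Apoe-Cst7- state for both genes, while within each of the 4 mice Fth1 was 1.07 to 1.42 times as high and Slc25a37 1.20-fold to 1.52-fold lower than in that state. Against that state the log2 difference of Fth1 was 0.30 (SE 0.16, adjusted p = 0.297, edgeR) in Apoe+Cst7- and 0.45 (SE 0.16, adjusted p = 0.111) in Apoe-Cst7+ cells, and that of Slc25a37 was -0.39 (SE 0.14, adjusted p = 0.135) and -0.36 (SE 0.14, adjusted p = 0.135). Neither member passed in these contrasts, where 19 of 304 genes (6.25%) and 20 of 304 (6.58%) did. The calls depend on the setting, since under DESeq2 both members passed in Apoe-Cst7+ cells, with 0.45 for Fth1 and -0.35 for Slc25a37.

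The share of cells with a Slc25a37 read followed its level. It was 61.9% and 58.8% of Apoe-Cst7- cells in Abi3+/+ mice 1 and 2 and 48.97% and 53.1% in Abi3-/- mice 1 and 2, and 32.1%, 22.03%, 39.3% and 33.2% of Apoe+Cst7+ cells. Thinned to 10000 reads per cell, the shares were 62.4%, 59.1%, 49.2% and 54.4% in the former and 32.5%, 22.03%, 39.47% and 34.3% in the latter state. In kept cells with a Slc25a37 read, the fewest were 10 to 13 reads per mouse and the medians 63 to 95. Thinning could thus empty few of these cells, so the thinned shares are a weak check on depth. Thinning left out 559 of the 13820 kept cells, namely 26, 288, 181 and 64 in Abi3-/- mice 1 and 2 and Abi3+/+ mice 1 and 2. Fth1 was read in 13797 of the 13820 kept cells and Slc25a37 in 6511. No class here is known to lack either gene, so a background share of these 2 genes could not be measured. For another gene, C1qa of the microglial list, 6.05% of T cells had a read. Its mean level there was 1.76 reads per 10000, against 704 in microglia.

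Within a state, cells with a Slc25a37 read had less Fth1. The median Fth1 level per cell was lower in cells with a Slc25a37 read than in cells without in 16 of 16 combinations of 4 mice and 4 states. The gap was widest in Apoe+Cst7+ cells of Abi3+/+ mouse 1, with 393 against 599 reads per 10000, and the ratio ranged from 1.01 to 1.53. Cells with a Slc25a37 read were the deeper ones in 13 of the 16 combinations. Both levels are shares of the same reads, and the part of depth in this gap was not tested.

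**Figure D2:**
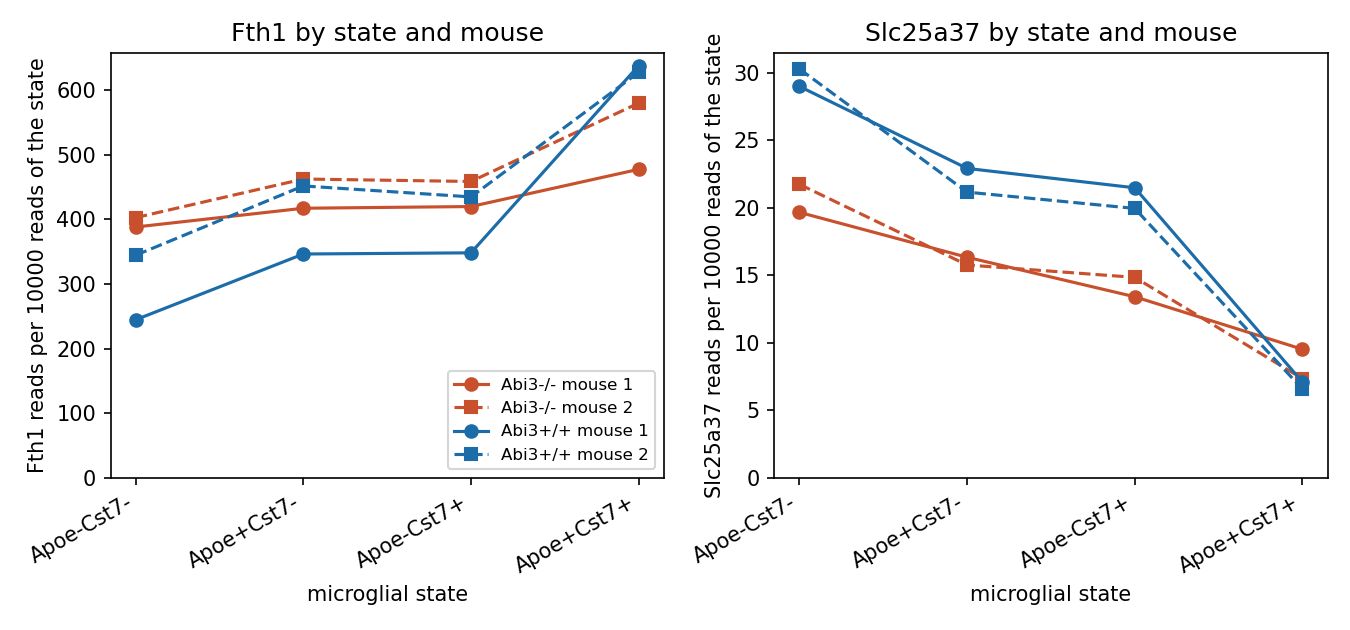
Reads per 10000 reads of the state (linear axes from 0) of Fth1, left, and Slc25a37, right, in each microglial state, with 1 line per mouse. The lines of the genotypes cross, so that the Abi3-/- mice are highest for Fth1 in the Apoe-Cst7- state (388 and 403) and lowest in the Apoe+Cst7+ state (478 and 580), and the reverse holds for Slc25a37.

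The genotypes were compared next, since the study asks what loss of Abi3 does. Over all microglia Slc25a37 was 21.8 and 21.7 reads per 10000 in Abi3+/+ mice 1 and 2 and 13.998 and 13.7 in Abi3-/- mice 1 and 2. The genotypes did not overlap, as for 140 of the 322 genes tested (43.5%), 111 of them lower in Abi3-/- mice (34.5%), so this alone does not set Slc25a37 apart. Fth1 was 370 and 444 in the former and 437 and 496 in the latter, and the genotypes overlapped. The log2 difference of Abi3-/- against Abi3+/+ was -0.45 for Slc25a37 (SE 0.13, unadjusted p = 0.0278, adjusted p = 0.664, edgeR) and 0.40 for Fth1 (SE 0.18, adjusted p = 0.707), and neither passed. Nor did any of the 322 genes tested (0%), although 21 had an unadjusted p under 0.05. DESeq2 called 8. An exact permutation test of 2 against 2 mice cannot give a 2-sided p under 0.333.

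The shares of 2 of the states moved with genotype in the same libraries. Apoe+Cst7+ cells were 17.6% and 19.4% of the microglia of Abi3+/+ mice 1 and 2 and 33.2% and 33.4% of those of Abi3-/- mice 1 and 2, and Apoe-Cst7- cells were 56.0%, 56.0%, 22.2% and 37.3%. The genotypes overlapped in the share of Apoe+Cst7- cells (18.8%, 16.8%, 38.2% and 17.9%), where Abi3-/- mouse 1 stood apart, and of Apoe-Cst7+ cells (7.52%, 7.81%, 6.42% and 11.4%). In the Apoe-Cst7-, Apoe+Cst7- and Apoe-Cst7+ states Slc25a37 in both Abi3-/- mice lay below both Abi3+/+ mice, as did 30%, 25.5% and 22.4% of all genes tested. In the Apoe+Cst7+ state both Abi3-/- mice lay above both Abi3+/+ mice, as for 16.5% of the genes. Fth1 in Abi3-/- mice lay above Abi3+/+ in the Apoe-Cst7- state, where 15% of the genes did so without overlap, and below it in the Apoe+Cst7+ state, where 15% did so. Its genotypes overlapped in the states with only Apoe or only Cst7.

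None of these within-state differences passed in edgeR. For Fth1 the log2 difference was 0.50 in Apoe-Cst7- (adjusted p = 0.545), 0.33 in Apoe+Cst7- (0.857), 0.23 in Apoe-Cst7+ (0.946) and -0.30 in Apoe+Cst7+ microglia (0.921). Slc25a37 had -0.45 (adjusted p = 0.362), -0.28 (0.857), -0.49 (0.692) and 0.24 (0.921) in the same order. With a mouse left out, the values of Fth1 ranged from 0.35 to 0.70, 0.20 to 0.44, 0.11 to 0.39 and -0.53 to -0.088, and those of Slc25a37 from -0.48 to -0.40, -0.41 to -0.16, -0.59 to -0.39 and 0.12 to 0.36. The value nearest 0, -0.088 for Fth1 in Apoe+Cst7+ microglia, was that without Abi3-/- mouse 1. Of all genes tested, 0 of 280, 0 of 282, 0 of 245 and 0 of 273 passed (0% in each state), while 32, 8, 16 and 13 had an unadjusted p under 0.05. The calls of DESeq2 numbered 16, 1, 14 and 0, and Slc25a37 in Apoe-Cst7- microglia was among its calls (-0.45, adjusted p = 0.0481).

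Whether the state contrast itself differed between the genotypes was tested as an interaction. The log2 difference between Apoe+Cst7+ and Apoe-Cst7- microglia was smaller in Abi3-/- mice for Fth1 by an interaction of -0.89 (SE 0.28, unadjusted p = 0.0166, adjusted p = 0.216, edgeR). For Slc25a37, whose state contrast is negative, the interaction was 0.63 (SE 0.22, unadjusted p = 0.0221, adjusted p = 0.258). Neither passed, and 0 of 303 genes (0%) did, with 33 at an unadjusted p under 0.05 and 25 called by DESeq2. With a mouse left out the interaction of Fth1 ran from -1.20 (without Abi3+/+ mouse 2) to -0.55 (without Abi3+/+ mouse 1) and that of Slc25a37 from 0.50 to 0.83, and neither passed. Without Abi3-/- mouse 2, edgeR called 26 genes.

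**Figure D3:**
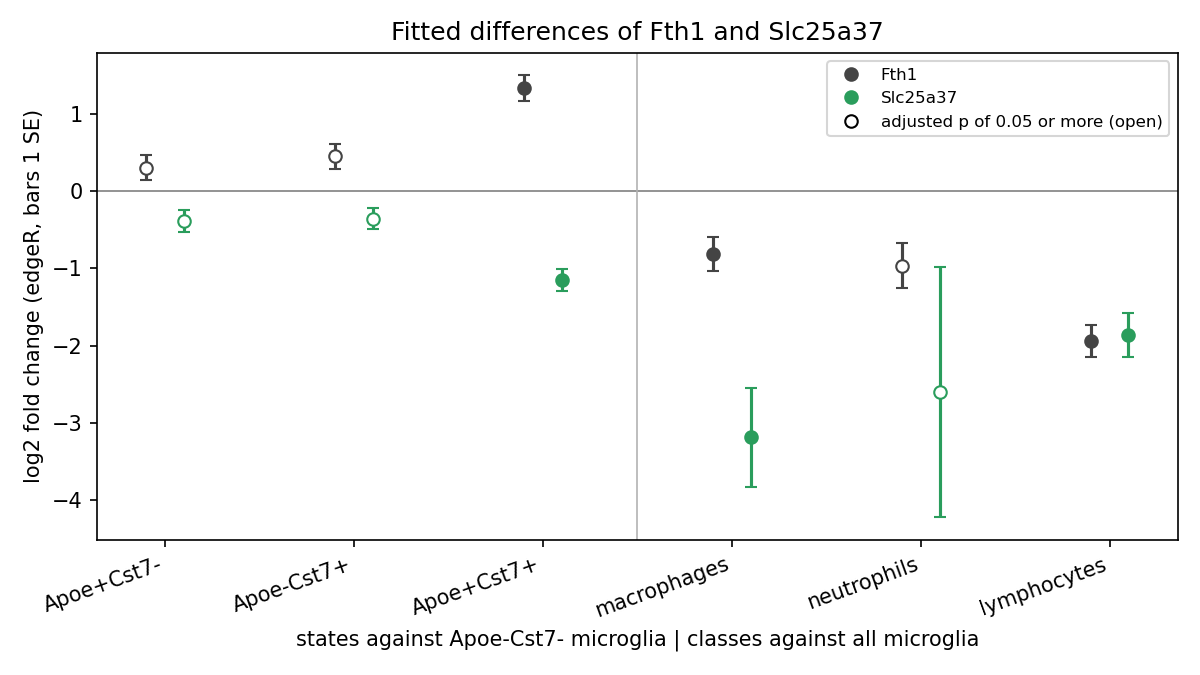
Fitted log2 fold changes of Fth1 and Slc25a37 from edgeR, with bars of 1 SE, for 3 microglial states against Apoe-Cst7- microglia and for 3 other classes against all microglia. Filled points have an adjusted p under 0.05. In the Apoe+Cst7+ state Fth1 is at 1.33 and Slc25a37 at -1.15, and in lymphocytes they are at -1.94 and -1.86.

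Summed over T and B cells, most of which were T cells, both members were lower than in microglia. T cells had the least variable Fth1 level, with 246 and 249 reads per 10000 in Abi3+/+ mice 1 and 2 and 239 and 238 in Abi3-/- mice 1 and 2, and B cells had 187, 244, 153 and 239. All of these lay below the 370 to 496 reads per 10000 of all microglia, as for 34% of the genes in T cells and 38% in B cells. In T and B cells summed, the log2 difference from microglia was -1.94 for Fth1 (SE 0.20, 3.84-fold lower, adjusted p = 0.00267, edgeR) and -1.86 for Slc25a37 (SE 0.29, 3.64-fold lower, adjusted p = 0.00710). In this contrast 208 of 353 genes (58.9%) passed, and TMM scaling set the median over all genes at -0.47, against 0.62 with library size alone. With library size alone Slc25a37 no longer passed (-0.77, adjusted p = 0.0976) and Fth1 did (-0.85, adjusted p = 0.0105).

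Within the lymphocytes, Slc25a37 was read more in B cells than in T cells. T cells had 13.1, 7.29, 5.34 and 8.40 reads per 10000 in Abi3+/+ mice 1 and 2 and Abi3-/- mice 1 and 2 (8.54 ± 3.32, SD, n = 4). B cells had 33.9, 15.8, 24.9 and 31.8 (26.6 ± 8.15, SD, n = 4), above the T cells of every mouse, as for 9.35% of the 353 genes tested in lymphocytes. As means over cells the classes overlapped, with B cells of Abi3+/+ mouse 2 at 12.7 and T cells of Abi3+/+ mouse 1 at 14.1. In 3 of the 4 mice the B cells also lay above the microglia of the same mouse, so the lower Slc25a37 level of the lymphocyte sum is not that of B cells. The B cell values rest on 23 cells with a read among 49, and 3 and 4 of these 49 cells came from Abi3+/+ mouse 1 and Abi3-/- mouse 1. This difference was not tested.

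The macrophage class, whose gate does not tell monocytes apart, had the lowest mean level of Slc25a37. It was 2.45 and 3.17 reads per 10000 in Abi3+/+ mice 1 and 2 and 1.27 and 6.47 in Abi3-/- mice 1 and 2, below the 13.7 to 21.8 of microglia, as for 31.9% of the genes. The log2 difference was -3.19 (SE 0.64, 9.10-fold lower, adjusted p = 0.0161, edgeR), from 13 cells with a read among 56, and its size was -2.16 with gates that allow a Trem2 read. Fth1 in macrophages was 432, 323, 359 and 303, overlapping the microglia and in Abi3+/+ mouse 1 above them (370), with a log2 difference of -0.82 (SE 0.22, adjusted p = 0.0391). The Fth1 call was lost when any mouse was left out (adjusted p of 0.0989 to 0.145, edgeR). It was also lost under 4 of 8 other alternatives, among them DESeq2 (-0.39, adjusted p = 0.183) and library size alone (-0.31, adjusted p = 0.471). The 8 include the requirement of 5 reads in the gates, which changed no cell and so could not move the call. The call of Slc25a37 was lost without Abi3-/- mouse 1 or either Abi3+/+ mouse, at an adjusted p of up to 0.0760. In this contrast 106 of 320 genes (33.1%) passed, and DESeq2 called 182.

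Neutrophils had 315, 277, 467 and 241 reads of Fth1 per 10000 in Abi3+/+ mice 1 and 2 and Abi3-/- mice 1 and 2, and 15.6, 3.84, 0 and 7.69 of Slc25a37. The high Fth1 value and the Slc25a37 value of 0 both belong to Abi3-/- mouse 1, with 5 cells. Neither log2 difference from microglia passed in edgeR, with -0.97 for Fth1 (SE 0.29, adjusted p = 0.0614) and -2.60 for Slc25a37 (SE 1.62, adjusted p = 0.233). Under the 8 alternatives, which include the requirement of 5 reads in the gates that changed no cell, Fth1 ranged from -1.68 to -0.42. It passed in 3, namely with thinned cells, with no upper read limit and with no cell filter. Slc25a37 ranged from -3.26 to -1.45 and passed with no upper read limit (-1.49). Slc25a37 was at -1.31 without Abi3-/- mouse 1, -3.31 without Abi3-/- mouse 2 and -3.50 without Abi3+/+ mouse 1. Of all genes, 94 of 314 (29.9%) passed, and 2 without Abi3-/- mouse 2.

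In order of mean level, Fth1 went from Apoe+Cst7+ (581 reads per 10000) over Apoe+Cst7- (420), Apoe-Cst7+ (416), macrophages (354), Apoe-Cst7- (345), neutrophils (325) and T cells (243) to B cells (206). Only the first step separated neighbours without overlap of the mice. The order is that of reads summed per class, and as means over cells Fth1 in neutrophils (458) lay above Apoe+Cst7- microglia (435). Slc25a37 went from B cells (26.6) over Apoe-Cst7- (25.2), Apoe+Cst7- (19.04), Apoe-Cst7+ (17.4), T cells (8.54), Apoe+Cst7+ (7.64) and neutrophils (6.78) to macrophages (3.34). Its only neighbours without overlap were Apoe-Cst7+ microglia and T cells, at 13.4 or more against 13.1 or less. As means over cells Slc25a37 in Apoe-Cst7- microglia (26.59) lay above B cells (23.31). The 173 cells that met no gate had the highest Fth1 level, with 774 and 1401 reads per 10000 in Abi3+/+ mice 1 and 2 and 760 and 990 in Abi3-/- mice 1 and 2.

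The genes most like each member were taken over the mean levels of these 8 classes, which share libraries and read totals, so the correlations are descriptions. Of 337 genes, Cd9 (Pearson's r = 0.87), Tlr2 (0.87), Fcer1g (0.86), Fcgr3 (0.86) and Cd14 (0.85) were most like Fth1. All of them were lowest in T and B cells, but not all followed Fth1 across the microglial states. From Apoe-Cst7- to Apoe+Cst7+ cells Fcgr3 fell from 251 to 173 reads per 10000 and Cd14 from 61.8 to 56.8. Cd9 rose from 212 to 269, Tlr2 was at 27.5 and 29.8, and Fcer1g at 198 and 200. Cnot2 (0.87), Tlr4 (0.85), Cd37 (0.83), Lgals9 (0.82) and Tlr1 (0.82) were most like Slc25a37. Cd37, a tetraspanin of lymphocytes, had 27.6 reads per 10000 in B cells and 4.09 in Apoe+Cst7+ microglia, an order like that of Slc25a37.

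The panel holds 4 other iron and heme genes and no haemoglobin gene. Hmox1 degrades heme, Slc11a1 (Nramp1) pumps iron out of phagosomes, Tfrc is the transferrin receptor that takes up iron, and Cd163 takes up haemoglobin. Between the Apoe+Cst7+ and Apoe-Cst7- states 2 of the 4 rose and 0 fell, where 25% of all genes passed as higher and 24.7% as lower. No median is given, since Cd163 met the count filter through a state outside this contrast. Hmox1 rose by 0.38 (adjusted p = 0.0472, edgeR) and Slc11a1 by 0.49 (adjusted p = 0.000442), but with library size alone they were at -0.17 and -0.06, so their direction depends on the scaling. Their mean levels were 11.1 and 9.72 reads per 10000 for Hmox1 and 88.1 and 84.2 for Slc11a1 in the Apoe-Cst7- and Apoe+Cst7+ states. Tfrc was at -0.03 (adjusted p = 0.906), but with library size alone it passed as lower (-0.56, adjusted p = 0.0344), and its mean levels in the same states were 2.02 and 1.27 reads per 10000. Cd163 met the count filter through the Apoe+Cst7- state, where 16 cells had a read against 1 Apoe-Cst7- cell, so its call in that contrast is not read as a result. Of those 16 cells 12 came from Abi3+/+ mouse 2, with 2582 of the 3466 reads. The Hmox1 call was lost without either Abi3-/- mouse or Abi3+/+ mouse 1.

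Against microglia, 2 of the 4 fell in macrophages, 1 in neutrophils and 2 in lymphocytes, and 0 rose. Of all genes tested, 21.2%, 21.3% and 28.9% passed as lower in these contrasts and 11.9%, 8.6% and 30% as higher. With Cd163 counted, 1 of 4 in neutrophils is near the 21.3%. Cd163 met the count filter through the microglia alone in neutrophils and lymphocytes, so its place in these counts says nothing of those classes. Slc11a1 was at 86.1 reads per 10000 in microglia on average, 17.4 in neutrophils and 2.499 in macrophages, and it passed in both contrasts (adjusted p = 0.0146 and 0.0294, edgeR). In lymphocytes 5 cells of 330 had a Slc11a1 read and 5 had an Hmox1 read, and both genes passed as lower (adjusted p = 0.0194 and 0.0319). Hmox1 was also lower in macrophages (-2.58, adjusted p = 0.0391). These calls were fragile, since both Hmox1 calls were lost without Abi3-/- mouse 1 or either Abi3+/+ mouse. Those of Slc11a1 were lost without either Abi3-/- mouse in neutrophils, without Abi3-/- mouse 2 or either Abi3+/+ mouse in macrophages, and without either Abi3-/- mouse or Abi3+/+ mouse 2 in lymphocytes. In macrophages the median of the list was -0.56 on the log2 scale, against -1.93 over all genes. No median is given for neutrophils and lymphocytes, where Cd163 met the count filter through the microglia alone. None of the 4 passed between genotypes or in the interaction.

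Alas2 reads were rare among kept cells. An Alas2 read was found in 14 of 13820 kept cells, which is 0.101% (exact binomial 95% interval 0.0554% to 0.170%). They were 4 of 2321 and 6 of 4499 cells in Abi3-/- mice 1 and 2, and 1 of 3796 and 3 of 3204 in Abi3+/+ mice 1 and 2. By class 6 were Apoe-Cst7- microglia, 1 was Apoe+Cst7-, 2 were Apoe-Cst7+, 3 were Apoe+Cst7+, 1 was a neutrophil and 1 met no gate. No macrophage of 56 and no lymphocyte of 330 carried a read, which allows shares of up to 5.36% and 0.909% when 3 cells of the total are taken as the limit (exact binomial upper limits 6.38% and 1.11%). In microglia the share was 0.0918% (12 of 13065 cells), so the 0 in these smaller classes could not be told from it at this depth. Microglia are not known to make Alas2, and no expression in a class is read from so low a share.

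The 14 cells differed widely among themselves. Their Alas2 reads ranged from 14 to 3117, with a median of 154, or 0.069% to 14.6% of a cell's reads. In 3 microglia of the Abi3-/- mice Alas2 took over 7% of the reads, with 3117 of 21282 reads in an Apoe-Cst7- cell of mouse 2, and 2144 and 1904 reads in an Apoe-Cst7- and an Apoe+Cst7- cell of mouse 1. Those cells also had 502, 321 and 181 reads of Slc25a37 per 10000, against means of 25.2 in Apoe-Cst7- and 19.04 in Apoe+Cst7- microglia. Of the 14 cells, 12 had a Trem2 read, 10 a Slc25a37 read and 14 an Fth1 read. The 5 genes furthest above all other kept cells in their share were Kdelr1 (78.6% against 47.1%), Mbp (50% against 19.9%), Junb (92.9% against 66.1%), Slc25a37 (71.4% against 47.1%) and H2-Ob (42.9% against 20.4%).

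Nearly all Alas2 reads lay outside the kept cells. Of 360735 Alas2 reads, 351728 (97.5%) were in 167 cells with fewer than 40 genes, 2.497% in the kept cells and none in the 1678 cells above the upper read limit, which allows a share of up to 0.179% of those cells by the same limit (exact binomial upper limit 0.22%). The 167 cells were 2.94% of the 5674 cells with fewer than 40 genes (exact binomial 95% interval 2.52% to 3.42%). They had a median of 5 panel genes and 3045 reads, and Alas2 made up a median of 72.0% of their reads (quartiles 60.1% and 83.2%). In 141 of them Alas2 took over 50% of the reads. Only 3 had 30 to 39 genes, just under the limit, and 0 of the 566 kept cells with 40 to 49 genes carried Alas2, so the Alas2 cells did not sit at the limit. Of the 181 barcodes with Alas2, 3 occurred in more than 1 library.

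**Figure D4:**
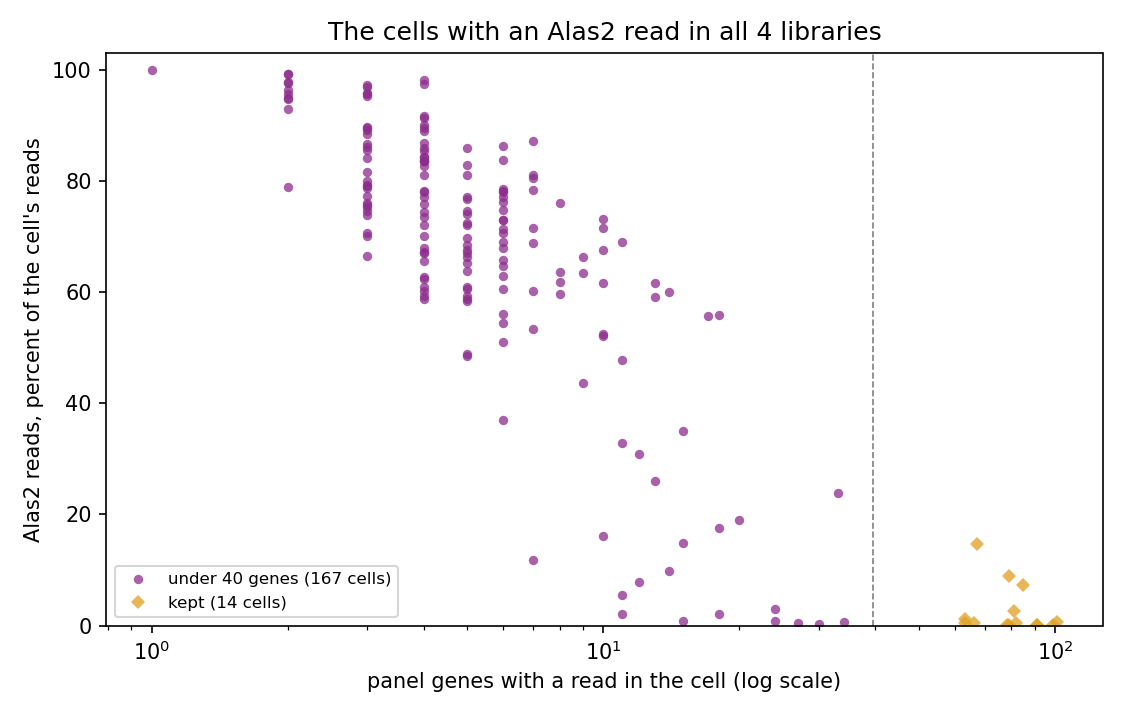
Each of the 181 cells with an Alas2 read, by its number of panel genes (log axis, dashed line at the limit of 40 genes) and the percent of its reads that are Alas2 (linear axis). The 167 cells with fewer than 40 genes reach 100%, and the 14 kept cells stay at or below 14.6%.

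Of the other panel genes, Slc25a37 gained the most percentage points between few-gene cells without and with Alas2. By the ratio of these percentages (22.4) it came after Ube2c (111), Cd36 (51.3), Txk (32.98) and Mki67 (23.98). This ratio set no lower limit on cells with a read, and Txk was read in only as many cells with Alas2 as without. Slc25a37 was read in 134 of the 167 cells, or 80.2% (exact binomial 95% interval 73.4% to 86.0%), against 197 of 5507 other cells with fewer than 40 genes, or 3.58% (3.10% to 4.10%). By mouse the shares were 72.7% against 3.98% and 85.0% against 3.74% in Abi3+/+ mice 1 and 2, and 80.0% against 2.64% and 84.6% against 3.42% in Abi3-/- mice 1 and 2. The gap held in each of the 4 libraries, without overlap, as for 5 of 242 genes (2.07%), the others being Cd36, Mki67, Ube2c and Ybx3. Median reads per cell were 3045 in the cells with Alas2 against 2367, and median panel genes per cell were 5 against 16. Of all Slc25a37 reads in the tables, 12.2% came from these 167 cells and 77.9% from kept cells without Alas2.

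The rest of their reads came from a short list of genes. Summed over the 167 cells, Alas2 made up 62.1% of the reads, Slc25a37 15.5%, Fth1 9.06% and Ube2c, a mitotic ubiquitin-conjugating enzyme, 3.56%. These are shares of reads of a targeted panel and do not rank the genes by transcripts. Ube2c was read in 38.3% of these cells against 0.345% of the other cells with fewer than 40 genes, Ybx3 in 31.1% against 4.21%, Cd36 in 8.38% against 0.163% and the proliferation gene Mki67 in 4.79% against 0.200%. Trem2 (8.98% against 21.9%), C1qa (7.19% against 22.6%) and Gapdh (13.8% against 96.5%) were rarer. Tfrc was read in 8.38% against 15.1%. Lymphocyte and neutrophil genes were rare in both sets, with Cd3e, Cd79a, Igkc and S100a9 at 0 against 0.0908%, 0.0726%, 1.76% and 0.218%, and S100a8 in 1.20% (2 cells) against 2.71%. Fth1 differed in the same direction as Gapdh, with a read in 82.6% of the 167 cells against 98.2%, and it made up 30.9% of the reads of the other cells with fewer than 40 genes.

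Of the erythroid markers listed for this panel, Alas2 chose these cells, Slc25a37 was common in them and Tfrc was not. With no haemoglobin gene in the panel, they are called Alas2-positive cells here and are given no cell type.

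By genotype, Alas2-positive cells with fewer than 40 genes were more frequent in the Abi3-/- libraries. They were 75 of 870 such cells (8.62%, exact binomial 95% interval 6.84% to 10.7%) and 39 of 1502 (2.60%, 1.85% to 3.53%) in Abi3-/- mice 1 and 2, and 33 of 1917 (1.72%, 1.19% to 2.41%) and 20 of 1385 (1.44%, 0.884% to 2.22%) in Abi3+/+ mice 1 and 2. Both Abi3-/- mice lay above both Abi3+/+ mice, as for 33 of 243 genes (13.6%) read in at least 10 of these cells. The interval of Abi3-/- mouse 2 overlapped those of both Abi3+/+ mice. The exact 2-sided permutation p was 0.333, the smallest that 2 against 2 mice allow. Abi3-/- mouse 1 stood apart from the other 3 libraries. All mice were perfused by the same protocol, and how fully blood was removed from each brain was not measured here, so its part in the result was not tested.

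**Figure D5:**
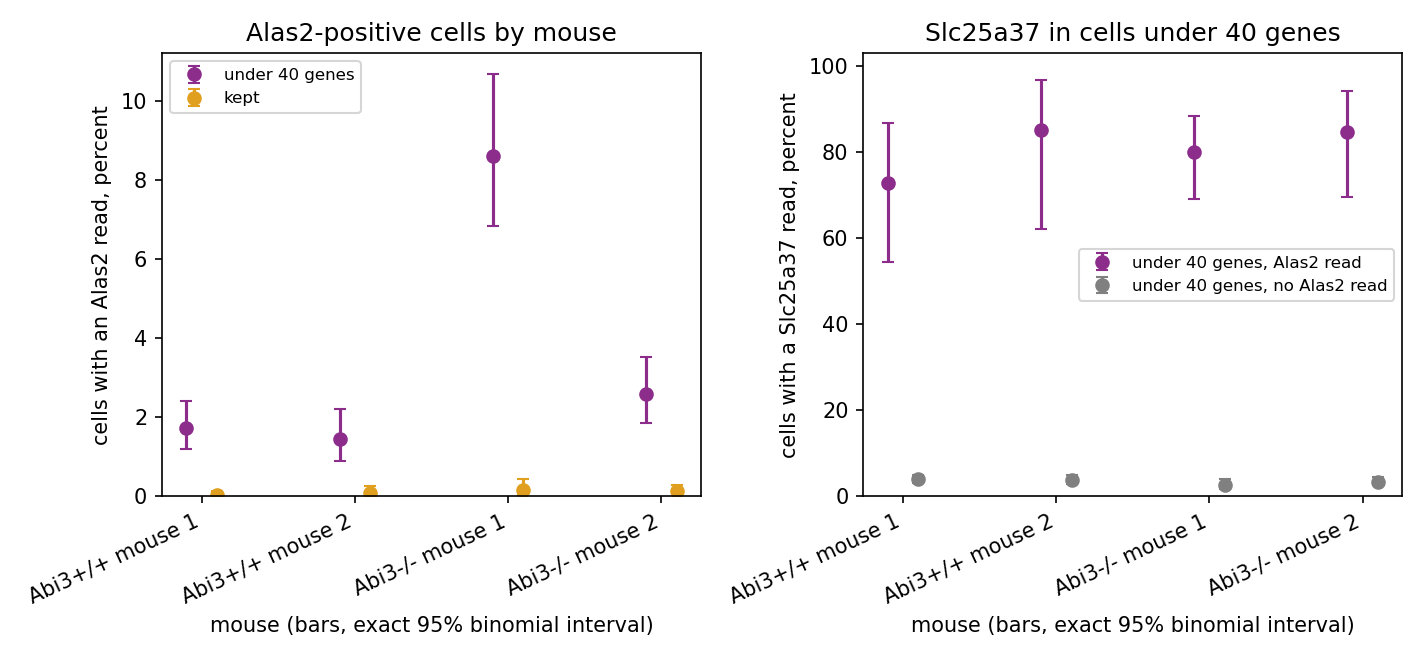
Left, percent of cells with an Alas2 read per mouse among cells with fewer than 40 genes and among kept cells. Right, percent of cells with fewer than 40 genes that have a Slc25a37 read, with and without an Alas2 read. Bars are exact 95% binomial intervals and axes are linear from 0. On the left the Abi3-/- mice are at 8.62% and 2.60% and the Abi3+/+ mice at 1.72% and 1.44%, and on the right the cells with Alas2 are at 72.7% to 85.0%.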

How the data were processed

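Sequencing reads were run by the authors through the targeted pipeline of BD Rhapsody with defaults. The deposited values are counts of reads for every gene in every cell, adjusted by distribution-based error correction (DBEC), and neither filtered by cell nor normalized. The submitters' processing notes name mm10, and the pipeline version is not given in the sources used here. The upper limit on reads per cell is the one the study states. Its lower limit is worded as unique reads and was applied here as 40 genes with a read.

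T and B cells and neutrophils needed reads of 3 of their gate genes and macrophages of 2, with no Trem2 read. No doublet caller was run. Cells that met a lineage gate and had Trem2, or met 2 gates, were set apart as mixed. Counts were summed per mouse and class and tested with edgeR 4.0.16 in R 4.3.3 (quasi-likelihood test, default filter on low counts, TMM, Benjamini-Hochberg adjustment over all genes tested, threshold 0.05). States and classes were compared with the mouse as a block and genotypes without. Gate genes were not tested. The numbers of genes past the threshold thus leave them out. Alternatives were library size scaling, DESeq2 1.42.0, limma 3.58.1, no filters, thinned cells, other gates and each mouse left out. Likeness used log2(reads per 10000 + 1) averaged over mice, for genes with a level of at least 1 in a class. The genes named are the members, the 4 other iron and heme genes, up to 5 genes most like Fth1 and Slc25a37, and up to 5 companions of Alas2 among kept cells. The companions among cells with fewer than 40 genes, and Cd3e and the other marker genes given there, were named after their values were seen. Members and lists were chosen with earlier results of these data known. No libraries held the same counts, which was checked in case 1 had been deposited under several names.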

Additional observations from a re-analysis of the deposited data

Results flagged for a closer look

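Alas2 reads appeared in cells that the comparisons of classes and genotypes did not use, those with fewer than 40 genes, and this is why they are given again here. The counts were 167 cells in all mice, 75 and 39 in Abi3-/- mice 1 and 2, and 33 and 20 in Abi3+/+ mice 1 and 2.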

How the results depend on the processing

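Alternative values of the log2 differences of Fth1 and Slc25a37 numbered 278, leaving out the 5-read gate that changed no cell. Of these, 251 kept direction and side of the threshold and 0 changed direction. The log2 differences of Alas2 were not part of this count. Of 96 alternative levels, 91 stayed within 1 SD. Most of the 96 left out a mouse, which cannot move the mean by 1 SD of the same mice. Only means over cells and thinning could fail this check. The cause of the changes listed here was not tested. Library size scaling reversed Hmox1 (-0.17) and Slc11a1 (-0.063) in the Apoe+Cst7+ state and ended the calls of Slc25a37 in lymphocytes (-0.77) and Fth1 in macrophages (-0.31). Tfrc, at -0.03 in that state, passed as lower with that scaling (-0.56) and lay above 0, without passing, under DESeq2 (0.073), with no upper read limit (0.049), no cell filter (0.0076) and library sizes without the gate genes (0.048), and ranged from -0.13 to 0.050 with mice left out. Fth1 in macrophages was also lost under DESeq2 (-0.39), thinning (-0.74), gates without the Trem2 condition (-0.52) and leaving out mice (-0.86 to -0.72), and Slc25a37 there ranged from -3.69 to -2.86 with mice left out. Calls were gained for Slc25a37 between genotypes in the Apoe-Cst7- state under DESeq2 (-0.45), for Fth1 in neutrophils with thinning (-1.17), no upper read limit (-1.68) and no cell filter (-1.67), and for Slc25a37 in neutrophils with no upper read limit (-1.49). In Apoe+Cst7- cells they were gained without the cell filter (Fth1 0.55, Slc25a37 -0.47) and, for Slc25a37, without Abi3-/- mouse 1 (-0.43 to -0.32 over the mice). In Apoe-Cst7+ cells they were gained under DESeq2 (Fth1 0.45, Slc25a37 -0.35), with no upper read limit (0.50 and -0.48), with no cell filter (0.44 and -0.56) and, for Fth1, without Abi3-/- mouse 1 (0.38 to 0.49 over the mice).

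Counts of genes past the threshold moved by over 1.5 times as follows. In Apoe+Cst7- cells they were 44 under DESeq2, 47 with no cell filter, 0 without the mouse term, 0 without Abi3-/- mouse 2 or Abi3+/+ mouse 2, and 3 without Abi3+/+ mouse 1. In Apoe-Cst7+ cells they were 41 with library size scaling, 77 under DESeq2, 67 with no upper read limit, 72 with no cell filter, 5 without the mouse term and 2 to 35 with mice left out. The Apoe+Cst7+ contrast had 99 without the mouse term, macrophages 182 and neutrophils 191 under DESeq2. Neutrophils had 2 to 74 with mice left out. Genotype contrasts had 8, 16, 1, 14 and 0 under DESeq2 in all microglia and in the Apoe-Cst7-, Apoe+Cst7-, Apoe-Cst7+ and Apoe+Cst7+ states, and the interaction 25. Leaving out a mouse gave up to 8 in Apoe+Cst7-, 1 in Apoe-Cst7+, 2 in Apoe+Cst7+ and 26 in the interaction, where the lone mouse is assumed to vary like the others.

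Alas2 was read in 181 cells without the cell filter, and in 8 to 13 kept cells with a mouse left out. Requiring 5 reads in the gates changed no value.

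With the replicate number as a block, 0 genes passed in all 5 genotype comparisons, and Slc25a37 over all microglia stayed at -0.45 and Fth1 at 0.40. Same-numbered mice correlated by 0.25 in their deviations over 241 genes, but with 2 pairs this does not establish a pairing.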
